A study of Homo sapiens with 11 samples.

Results

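Cholesterol and fatty acids are both built from acetyl-CoA, and 32 genes of these pathways were followed in liver tumours grown from human pancreatic cancer cells with or without knockdown of NPTX1, which encodes the secreted neuronal pentraxin 1. The genes were taken by symbol from a fixed list and all 32 were found among the 23434 rows deposited by the authors. They comprise 18 enzymes of the sterol branch, 8 of the fatty acid branch, and 6 regulators and sterol carriers. The authors' deposited table gives an adjusted p for all 32 and for 18426 named genes in all, and 31 of them had a mean of at least 2 CPM (38.6 normalized counts); the elongase gene ELOVL6 was below that level.

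The tumours came from PANC1 LM3, a liver-metastatic derivative (generation 3) of PANC1, an established cell line of human pancreatic ductal carcinoma. All cells carried a short hairpin RNA, either a control (shCTRL, 4 libraries) or 1 of 2 against NPTX1 (shNPTX1_3 with 3 libraries and shNPTX1_4 with 4). In each group the spleen received 500000 cells on day 1 and the liver tumours were taken on day 21. The labels call the controls WT and the other groups NPTX1 knock down, and they number the libraries of each group as biological replicates. They give neither the strain nor the age of the host animals, nor whether each library came from its own animal. The p-values therefore reflect only how these libraries vary, and some of that variation may be technical. The table holds the mean normalized count of each group and a single comparison of 7 knockdown with 4 control libraries, so values of single libraries and an SD were not analysed here.

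In mammalian cells acetyl-CoA is condensed to mevalonate, converted to isoprenoids, joined to squalene, closed into lanosterol and trimmed to cholesterol. The same acetyl-CoA, carboxylated to malonyl-CoA, feeds fatty acid synthase, and its products are elongated and desaturated. Both branches are transcribed under the SREBP factors, which the escort protein SCAP carries out of the endoplasmic reticulum when sterols are low and which the INSIG proteins hold back when sterols are high. SREBP-2 is known mainly for the sterol branch and SREBP-1 mainly for the fatty acid branch, and the liver X receptors, which sense oxysterols, induce SREBF1 and genes of cholesterol export.

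The checks of the material bear on these genes as follows. NPTX1 itself stood at 103 normalized counts with shCTRL (authors' means throughout), 46.5 with shNPTX1_3 and 38.4 with shNPTX1_4; the authors' deposited table has it lower by a log2 value of -1.26 (DESeq2 adjusted p = 3.65e-06). Library sizes read from the smallest values of the group means were between 10800000 and 41200000 reads on genes. Among 7 markers of the labelled carcinoma line, KRT8, KRT18 and vimentin were abundant, KRT7 was low, and 4 were higher in the knockdown tumours in the authors' deposited table. Liver makes much of an animal's cholesterol, so hepatocyte transcripts were examined: the normalized counts of 18 markers came to 303 with shCTRL, 358 with shNPTX1_3 and 289 with shNPTX1_4, and 9 of them were too low for an adjusted p. ALB was at 0.784, 0.616 and 0.284 normalized counts and AHSG was listed at 0 in shCTRL and shNPTX1_3. Of the 9 tested, APOA1 and TF were higher and CYP8B1 lower in the authors' deposited table. Markers of leukocytes summed to 864, 930.0 and 765 normalized counts, of which CD68 alone gave 697, 794 and 635. Those of fibroblasts summed to 1852, 6611 and 3561, of which COL3A1 alone gave 731, 5517 and 2247. All these markers were read under human gene symbols, and how mouse reads were treated is not stated. The sums may therefore miss the host's own cells, hepatocytes included, and a low ALB is no measure of host liver. The part of other cells in the changes below was not tested. In bulk tumour RNA, fewer cells of a type and less RNA per cell cannot be told apart.

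The sterol branch was higher in the knockdown tumours and the fatty acid branch showed no called change. Of the 18 sterol enzymes, the authors' deposited table has 11 higher and 0 lower at an adjusted p under 0.05 (DESeq2), and all 18 had a positive log2 fold change. Across all named genes tested, 15.8% were called higher, 11.5% lower and 27.3% either way. None of the 8 fatty acid enzymes was called (0 of 8), and of the 6 regulators 3 rose and 1 fell. The median log2 fold change from the authors' deposited table was 0.37 in the sterol branch, 0.28 among the regulators and 0.07 in the fatty acid branch, against -0.01 over all genes tested. Summed over the branch, the authors' means of the sterol enzymes went from 18276 normalized counts with shCTRL to 24858 with shNPTX1_3 and 22665 with shNPTX1_4, whereas those of the fatty acid enzymes were 23041, 24761 and 22898. The difference between the branches is given by these counts and medians and was not tested. If the groups are brought to equal totals, each log2 fold change drops by 0.0661, and 11.6% of all genes were called higher and 16.4% lower, so that the share of higher genes among the called went from 57.9% to 41.4%. Under that scaling 10 of the 18 sterol enzymes and 0 of the 8 fatty acid enzymes were called, and the sterol enzymes all stayed positive.

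**Figure D1:**
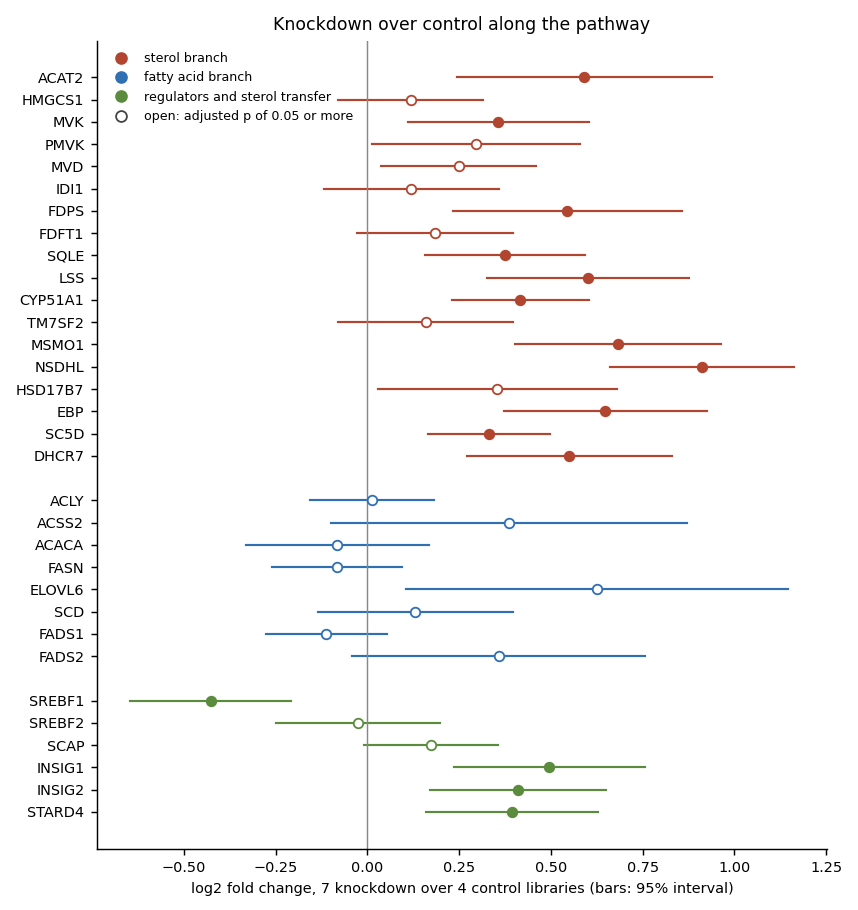
Log2 fold change of each gene, 7 knockdown over 4 control libraries, from the authors' deposited table, with 95% intervals from its standard errors; filled points have an adjusted p under 0.05. All 18 sterol genes lie right of 0 and 11 are filled, the 8 fatty acid genes are all open, and SREBF1 is the filled point left of 0.

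The first steps of the sterol branch had the smallest share of calls; the steps were not tested against each other. From acetyl-CoA to farnesyl diphosphate 3 of 7 enzymes rose in the authors' deposited table, with a median log2 fold change of 0.30. ACAT2, the cytosolic thiolase that makes acetoacetyl-CoA, had 909 normalized counts with shCTRL, 1601 with shNPTX1_3 and 1197 with shNPTX1_4. Both knockdown means lay above control, and its fold change in the authors' deposited table was 1.51 (log2 0.59, standard error 0.18, DESeq2 adjusted p = 0.00554). HMGCS1, the HMG-CoA synthase of the next step, was one of the most abundant sterol genes and was not called: its authors' means were 2820.5, 3257 and 2913 normalized counts, and the 95% interval of its log2 fold change in the authors' deposited table ran from -0.08 to 0.32. Mevalonate kinase (MVK) rose from 159.9 to 216 and 202 normalized counts (log2 0.36, standard error 0.13, DESeq2 adjusted p = 0.0214 in the authors' deposited table), and it was the only member to lose its call with equal totals (adjusted p = 0.0668).

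The kinase and decarboxylase that follow, PMVK and MVD, were not called; the authors' deposited table gives PMVK 0.30 (DESeq2 adjusted p = 0.111) and MVD 0.25 (adjusted p = 0.0685) as log2 fold changes. PMVK had the lowest mean of the sterol enzymes, with 101, 133 and 123 normalized counts. The isopentenyl diphosphate isomerase gene IDI1 had authors' means of 2146, 2254 and 2386 normalized counts and was not called (log2 0.12, standard error 0.12 in the authors' deposited table). Farnesyl diphosphate synthase (FDPS), where the route forks towards prenylated proteins, dolichol and ubiquinone, rose from 1302 to 2258 and 1632 normalized counts (log2 0.54, standard error 0.16, DESeq2 adjusted p = 0.00451 in the authors' deposited table). Of its 3 means, that of shNPTX1_3 was the highest. FDPS has 8 pseudogenes by name in GENCODE release 29, CYP51A1 has 3 and HSD17B7 has 2, so reads of these genes could be shared with copies.

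At the squalene and lanosterol steps 2 of 3 enzymes rose in the authors' deposited table. Squalene synthase (FDFT1) was the one not called, with authors' means of 839, 950.5 and 954 normalized counts and a log2 fold change of 0.18 (standard error 0.11). Squalene epoxidase (SQLE), a rate-limiting enzyme of the later pathway, had 2009, 2868 and 2410.5 normalized counts and rose 1.30-fold (DESeq2 adjusted p = 0.00505 in the authors' deposited table). Lanosterol synthase (LSS), which closes the rings, rose 1.52-fold in the authors' deposited table, from 824 to 1455.5 and 1101 normalized counts (log2 0.60, standard error 0.14, adjusted p = 2.37e-04 by DESeq2). In both genes the 2 knockdown means lay above control.

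The conversion of lanosterol to cholesterol held most of the calls: 6 of its 8 enzymes rose in the authors' deposited table, with a median log2 fold change of 0.48. NSDHL, the dehydrogenase of C4 demethylation, was the member with the largest change. It had 262 normalized counts with shCTRL, 494 with shNPTX1_3 and 492 with shNPTX1_4, so that both hairpins stood at nearly the same level. In the authors' deposited table it rose 1.88-fold (log2 0.91, standard error 0.13, DESeq2 adjusted p = 6.98e-11). MSMO1, the C4 methyl oxidase that works ahead of NSDHL, showed the same shape with 704, 1133 and 1122 normalized counts and rose 1.60-fold (log2 0.68, standard error 0.14, DESeq2 adjusted p = 3.33e-05 in the authors' deposited table). HSD17B7, the ketoreductase that completes the demethylation, had 411, 614 and 459 normalized counts, with shNPTX1_3 the highest, and it was not called (log2 0.35, standard error 0.17, DESeq2 adjusted p = 0.0959 in the authors' deposited table).

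EBP, the sterol isomerase, had authors' means of 304, 489.5 and 467 normalized counts and rose 1.57-fold (log2 0.65 with a standard error of 0.14, DESeq2 adjusted p = 7.66e-05 in the authors' deposited table). CYP51A1, which encodes lanosterol 14-alpha-demethylase and was the most abundant of the sterol enzymes, rose 1.34-fold from 3010.3 to 4047 and 3993 normalized counts (DESeq2 adjusted p = 1.72e-04 in the authors' deposited table). SC5D, the C5 desaturase, rose from 1333 to 1625 and 1709 normalized counts, a small change of 0.33 on the log2 scale with the narrowest error of the branch in the authors' deposited table (0.08). DHCR7, which makes cholesterol from 7-dehydrocholesterol, rose from 522 to 703 and 811 normalized counts (log2 0.55, standard error 0.14 in the authors' deposited table). In SC5D and DHCR7, unlike in the other called sterol enzymes, the mean was higher with shNPTX1_4 than with shNPTX1_3. TM7SF2, a C14 sterol reductase, was not called: its authors' means were 227, 257 and 251 normalized counts and the 95% interval of its log2 fold change was -0.08 to 0.40 in the authors' deposited table.

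**Figure D2:**
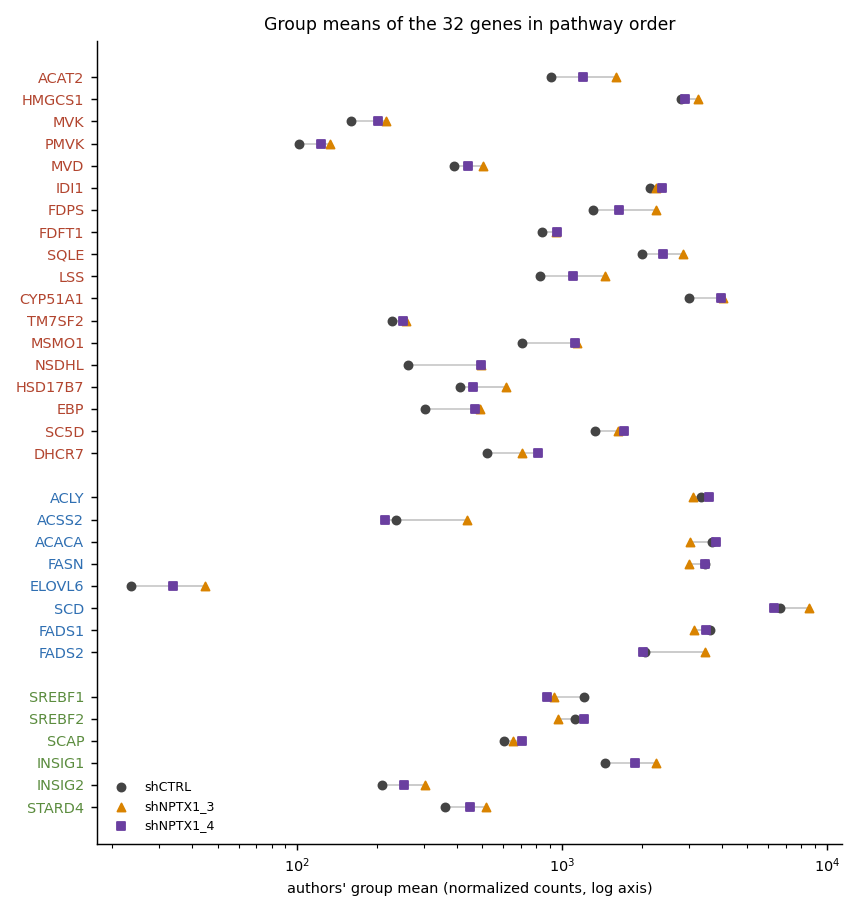
Authors' mean normalized count of each group on a log axis, with gene names coloured by branch (red sterol, blue fatty acid, green regulators and sterol transfer). Control points lie left of both knockdown points in every sterol gene, whereas in the fatty acid genes the shNPTX1_4 point lies near control, except in ELOVL6, and shNPTX1_3 falls on either side.

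NSDHL and EBP lie on chromosome X, and X genes were higher in the knockdown tumours as a group: of 439 X genes at 2 CPM or more, 47.8% were called higher and 4.56% lower in the authors' deposited table, against 19.4% and 13.1% of all genes at that level. The median log2 fold change of the X genes was 0.32, so that NSDHL at 0.91 and EBP at 0.65 in the authors' deposited table were both above it. Without NSDHL and EBP, a count added after the data were seen, 9 of 16 sterol enzymes were called, all higher; the part of the chromosome in these changes was not tested.

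Transcript length also moved with the result. The longest coding transcripts of the sterol enzymes in GENCODE release 29 had a median of 2558 nt and those of the fatty acid enzymes 4943.5 nt, and genes at 2 CPM or more with short transcripts were called higher more often, 31.8% in the shortest of 5 equal length groups against 13.5% in the longest. In the shortest group (up to 2056 nt) 3 of 7 sterol enzymes rose, in the next (up to 2967 nt) 5 of 6 did where 22.5% of all genes did, in the middle group 2 of 4 (19.4%), and in the one above it the single enzyme there, LSS (16.5%). With the median of all genes in the same length group subtracted, an alternative chosen after the data were seen, the median log2 fold change was 0.28 in the sterol branch and 0.25 among the regulators. For the 7 fatty acid enzymes at 2 CPM or more it was 0.02, against 0.01 for the same 7 without the subtraction. NSDHL and MSMO1 then stood at 0.72 and 0.60, and HMGCS1 at 0.09; the part of length in the calls was not tested further.

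Of the 8 fatty acid enzymes, ACLY, ACACA, FASN and FADS1 had the narrowest intervals, each including 0. ATP-citrate lyase (ACLY), which supplies cytosolic acetyl-CoA, had authors' means of 3354, 3112 and 3586 normalized counts, with shNPTX1_3 below control and shNPTX1_4 above it. Its log2 fold change in the authors' deposited table was 0.01 with a 95% interval from -0.16 to 0.18. Acetyl-CoA carboxylase 1 (ACACA), the committed step, had 3674, 3028 and 3806 normalized counts and an interval from -0.33 to 0.17 in the authors' deposited table. Fatty acid synthase (FASN) had 3459.6, 3019 and 3452 normalized counts and an interval from -0.26 to 0.09. FADS1, the delta-5 desaturase, had 3609, 3141 and 3480.3 normalized counts and an interval from -0.28 to 0.05. In ACLY, ACACA, FASN and FADS1 the shNPTX1_3 mean was the lowest of the 3.

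The other fatty acid enzymes had wider intervals. Stearoyl-CoA desaturase (SCD), the most abundant member, had authors' means of 6629, 8518 and 6313 normalized counts, FADS2, the delta-6 desaturase, had 2055, 3460.1 and 2014, and ACSS2, the acetyl-CoA synthetase that uses acetate, had 236, 437 and 214. In these 3 genes shNPTX1_3 was high and shNPTX1_4 was slightly below control. The pooled log2 fold changes in the authors' deposited table were 0.13, 0.36 and 0.39 with standard errors of 0.14, 0.20 and 0.25, none of them called. ELOVL6, which elongates palmitate, was scarce at 23.5, 44.9 and 34.0 normalized counts; its log2 fold change of 0.63 had a 95% interval from 0.10 to 1.15, and the authors' deposited table gives it an adjusted p of 0.0632 (DESeq2). An interval that includes 0, or an uncalled gene, does not show that a level was the same.

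The regulators moved in different directions. SREBF1, which encodes SREBP-1, was the only member called lower. It went from 1214 normalized counts with shCTRL to 935 with shNPTX1_3 and 877 with shNPTX1_4, and both hairpins lay below control. Its fold change in the authors' deposited table was 0.744 (log2 -0.43, standard error 0.11, DESeq2 adjusted p = 0.00125); the table does not separate its isoforms. SREBF2, which encodes SREBP-2, had 1121, 964 and 1205 normalized counts and a log2 fold change of -0.03 with an interval from -0.25 to 0.20 in the authors' deposited table. The escort protein gene SCAP had 604, 654 and 705 normalized counts and was not called (log2 0.17, standard error 0.09 in the authors' deposited table).

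INSIG1, a retention protein and itself a classical SREBP target, rose 1.41-fold in the authors' deposited table, from 1451 to 2259 and 1882 normalized counts (DESeq2 adjusted p = 0.00169). INSIG2, its relative, rose 1.33-fold from 208 to 303 and 252 normalized counts, with an adjusted p of 0.00554 by DESeq2 in the authors' deposited table. STARD4, a soluble sterol carrier, rose 1.31-fold from 363 to 516 and 447 normalized counts (DESeq2 adjusted p = 0.00661 in the authors' deposited table). In all 3 the order was shCTRL, shNPTX1_4, shNPTX1_3.

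Per kilobase of the longest coding transcript, the level in shCTRL was highest for SCD, at 1236 normalized counts per kb, followed by CYP51A1 at 938 and FDPS at 881. HMGCS1, FADS1 and ACLY followed at 804, 798 and 773. The lowest level among the sterol enzymes was that of MVK at 58.2 normalized counts per kb, and ELOVL6 was the lowest member at 3.65. Neither high nor low genes made up the calls, since CYP51A1 and MVK both rose while HMGCS1 and PMVK were not called in the authors' deposited table.

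Each hairpin was then set against the same 4 control libraries, as a log2 ratio of group means with a pseudocount of 1. All 18 sterol enzymes were above control with both hairpins, which was so for 39.8% of 14127 genes at 2 CPM or more; both ratios share the control libraries. The median ratio of the sterol branch was 0.43 with shNPTX1_3 and 0.33 with shNPTX1_4, where the medians of all genes were 0.01 and 0.02. For the 7 fatty acid enzymes at that level the medians were -0.11 and -0.03, and none was above control with both. Of the 18 sterol enzymes, 14 had a lower mean with shNPTX1_4 than with shNPTX1_3 (47.5% of all genes did). In the lanosterol-to-cholesterol segment the medians were 0.50 and 0.51, with shNPTX1_4 the lower in 6 of 8 enzymes, and in the segment up to farnesyl diphosphate they were 0.39 and 0.28, with shNPTX1_4 the lower in 6 of 7.

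A direct test of shNPTX1_4 against shNPTX1_3 used the standard error of the authors' deposited table rescaled from 7 against 4 to 4 against 3 libraries, which assumes equal variance per library. That error comes from both hairpins pooled, so a difference between the hairpins enlarges it and holds the test back. The test called 0 of 14127 genes (0%) after Benjamini-Hochberg adjustment, the smallest adjusted p being 0.0717, and 3481 (24.6%) had an unadjusted p under 0.05. For that reason the 0 does not show that the hairpins were alike. Of the 31 members in that test 8 (25.8%) had an unadjusted p under 0.05, a share near that of all genes. ACSS2 and FADS2 were among 494 genes that shared the smallest adjusted p: the difference, shNPTX1_4 minus shNPTX1_3, was -1.03 (95% interval -1.62 to -0.44) for ACSS2 and -0.78 (-1.27 to -0.29) for FADS2. For NSDHL the difference was -0.01 with an interval from -0.31 to 0.30, and for MSMO1 -0.01 with -0.36 to 0.33.

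**Figure D3:**
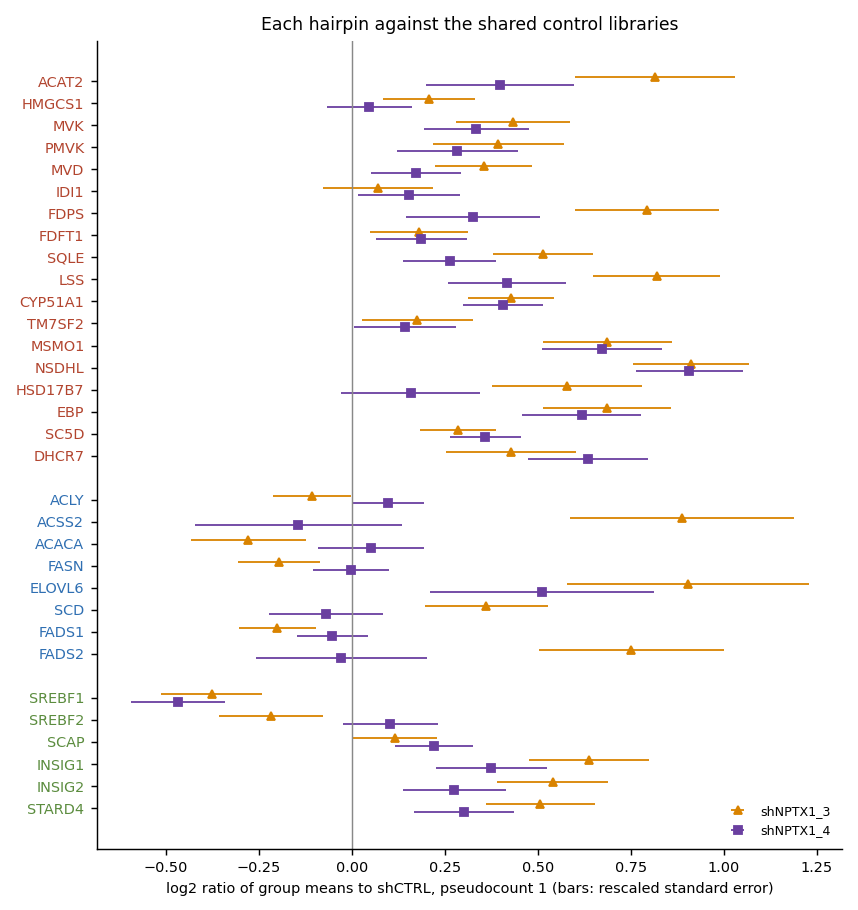
Log2 ratio of each hairpin's group mean to shCTRL (pseudocount 1), with the standard error of the authors' deposited table rescaled to the libraries compared; both ratios share the 4 control libraries. NSDHL and MSMO1 have both points together near 0.9 and 0.7, whereas ACSS2 and FADS2 are high with shNPTX1_3 and near or below 0 with shNPTX1_4.

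The promoters were read to see what members that moved together have in common. RefSeq windows from 250 bases before to 50 after the gene start (GRCh38.p14) were present for 28 of the 32 members, not for ACAT2, FDFT1, SQLE and FASN. The windows below show only the bases before the start. INSIG1 is shown because it was the called member with a match to a sterol regulatory element. NSDHL, MSMO1 and EBP, the 3 largest increases, and SREBF1, the only member called lower, were added after their values were seen. Capitals mark CCAAT, the box bound by NF-Y, a usual partner of SREBPs, and in INSIG1 also TCANNCCAC, a loose form of the sterol regulatory element, and the E-box TCACGTGA, all on either strand.
NSDHL (chrX:152830813-152831062, plus strand): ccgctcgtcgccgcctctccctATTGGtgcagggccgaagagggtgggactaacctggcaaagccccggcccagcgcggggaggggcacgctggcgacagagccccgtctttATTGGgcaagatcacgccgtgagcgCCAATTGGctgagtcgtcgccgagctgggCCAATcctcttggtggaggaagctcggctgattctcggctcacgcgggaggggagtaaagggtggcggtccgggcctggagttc
MSMO1 (chr4:165327419-165327668, plus strand): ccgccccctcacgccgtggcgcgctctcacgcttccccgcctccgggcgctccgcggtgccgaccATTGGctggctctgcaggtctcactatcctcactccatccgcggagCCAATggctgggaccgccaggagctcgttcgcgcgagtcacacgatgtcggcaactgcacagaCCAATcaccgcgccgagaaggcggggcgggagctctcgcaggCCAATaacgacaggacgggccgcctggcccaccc
EBP (chrX:48521558-48521807, plus strand): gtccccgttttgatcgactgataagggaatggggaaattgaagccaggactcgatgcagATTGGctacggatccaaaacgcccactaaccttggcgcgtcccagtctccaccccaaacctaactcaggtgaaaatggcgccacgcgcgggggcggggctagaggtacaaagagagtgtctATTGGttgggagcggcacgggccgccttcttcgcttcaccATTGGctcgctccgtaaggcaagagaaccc
INSIG1 (chr7:155297628-155297877, plus strand): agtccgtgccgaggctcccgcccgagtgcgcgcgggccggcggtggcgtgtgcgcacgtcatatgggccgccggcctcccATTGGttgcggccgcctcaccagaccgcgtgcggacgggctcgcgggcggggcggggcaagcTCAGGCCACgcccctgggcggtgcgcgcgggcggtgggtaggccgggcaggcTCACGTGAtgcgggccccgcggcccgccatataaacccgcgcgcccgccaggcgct
SREBF1 (chr17:17836987-17837236, minus strand): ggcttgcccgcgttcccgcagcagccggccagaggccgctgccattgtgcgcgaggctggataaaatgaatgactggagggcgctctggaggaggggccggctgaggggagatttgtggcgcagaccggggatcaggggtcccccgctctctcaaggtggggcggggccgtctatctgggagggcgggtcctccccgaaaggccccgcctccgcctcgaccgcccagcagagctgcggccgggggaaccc

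The NSDHL window held 5 CCAAT boxes, of which 1 pair overlaps head to head, MSMO1 held 4, EBP 3 and INSIG1 1, while SREBF1 had none in these letters. Counting any annotated window of a gene, 13 of 15 sterol enzymes had CCAAT (86.7%, exact 95% interval 59.5 to 98.3). So did 5 of 7 fatty acid enzymes (71.4%, interval 29 to 96.3) and 3 of 6 regulators, against 43.4% of 10474 genes at 2 CPM or more. In the sterol gene IDI1 and the fatty acid genes ACACA and FADS2, none of them called, it lay only outside the first listed window. Counted in any window, the box was in 10 of 12 members called higher (83.3%, interval 51.6 to 97.9). It was in 11 of 15 not called (73.3%, interval 44.9 to 92.2). These intervals overlap widely, the second count depends on the windows used, and the shares were not tested against each other. The strict element TCACNCCAC was in 1 of 28 members, SREBF2, where 1.5% of genes at 2 CPM or more had it, and the looser TCANNCCAC, which includes it, was in 3 (SREBF2, INSIG1 and ACLY), where 4.46% had it. The E-box CACGTG was in 4 members (14.3%, against 12.3%), with its longer form TCACGTGA in INSIG1 alone (3.57%, against 2.22%), and the GC box GGGCGG was in 27 of 28 (96.4%, against 75.1%). A match describes letters in this window and is not a measured binding site.

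**Figure D4:**
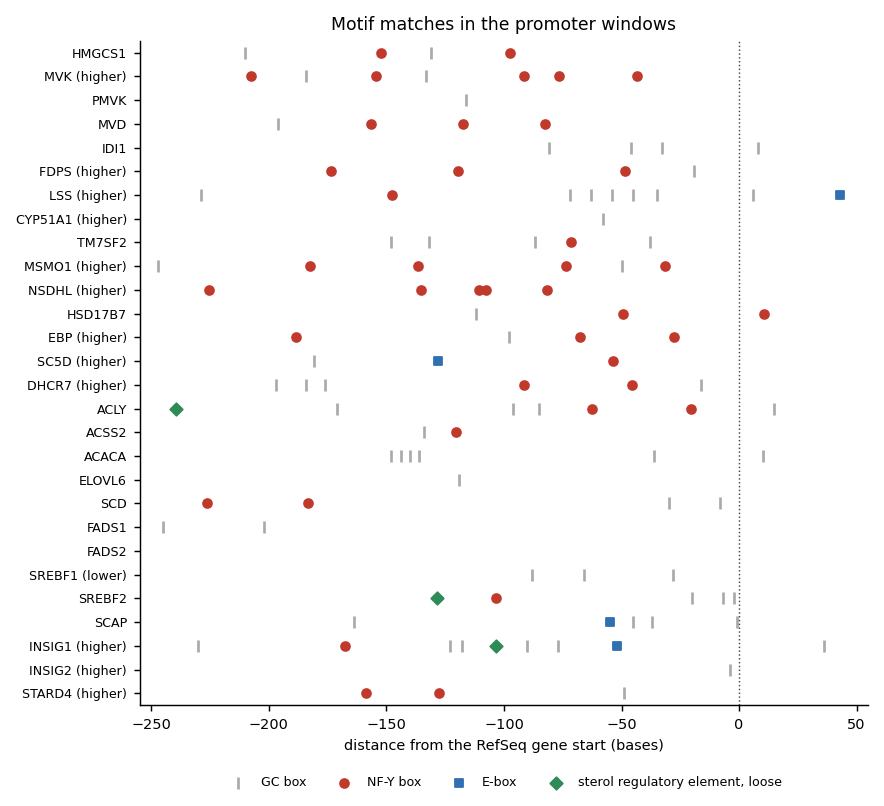
Positions of motif matches relative to the RefSeq gene start in the first listed promoter window of 28 members, in pathway order, with called members marked higher or lower. NF-Y boxes (red) recur through the sterol genes, with 5 each in MVK and NSDHL, and the loose sterol element (green) appears in ACLY, SREBF2 and INSIG1.

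Neighbouring lipid genes were taken from 6 further lists, whose counts stand against 15.8% higher and 11.5% lower over all genes tested. Of 13 genes of SREBP processing and sterol sensing, the authors' deposited table has 6 higher (46.2%) and 1 lower (7.69%). HSPA5, an endoplasmic reticulum chaperone that binds unfolded proteins, rose by 0.64 on the log2 scale. MBTPS2, the site-2 protease that releases SREBPs, fell by 0.47, from 449 to 325 and 326 normalized counts. MBTPS1, the site-1 protease, was called higher, by 0.32, from 1607 to 2148 and 1894 normalized counts. Of 14 genes of the isoprenoid side branches leaving FDPS, 5 rose (35.7%) and 0 fell, led by the dolichol kinase gene DOLK (log2 0.61) and the prenylcysteine methyltransferase gene ICMT (0.33) in the authors' deposited table. Of 16 genes of cholesterol efflux, LXR response and intracellular transport, 3 rose (18.8%) and 4 fell (25%). The 2 largest changes there were decreases of LXR targets: MYLIP, a ligase that degrades lipoprotein receptors, had 275, 108 and 106 normalized counts, and ABCA1, the cholesterol exporter, had 489, 187 and 239. The authors' deposited table gives log2 fold changes of -1.37 for MYLIP (standard error 0.11) and -1.16 for ABCA1 (standard error 0.14), and both hairpins lay below control, as for SREBF1. ABCG1, another LXR target, was not called, with 91.2, 76.0 and 77.3 normalized counts, and NR1H3, which encodes LXR-alpha, rose by 0.41 in the authors' deposited table.

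Of 12 tested genes of esterification and lipid droplets 4 rose (33.3%) and 0 fell, with HILPDA, a lipase inhibitor, at a log2 fold change of 0.74 and BSCL2, which encodes seipin, at 1.14 in the authors' deposited table. BSCL2 shares its sequence with the readthrough HNRNPUL2-BSCL2, so its reads are uncertain. Of 24 other genes of fatty acid synthesis, elongation and activation 4 rose and 4 fell (16.7% each), shares near those of all genes. The acyl-CoA synthetase gene ACSL4, with 1259, 3243 and 2355 normalized counts, rose by 1.12 in the authors' deposited table. Its relative ACSL5 had 80.8, 237 and 102 normalized counts, so that its pooled value of 0.99 in the authors' deposited table came with a high mean for shNPTX1_3 and one nearer control for shNPTX1_4. Of 22 tested genes of fatty acid uptake and oxidation 3 rose (13.6%) and 1 fell (4.55%), shares no higher than those of all genes; SLC25A20, the carnitine carrier, stood at 0.58 and the enoyl-CoA hydratase ECHS1 at 0.39 in the authors' deposited table. The medians of these 6 lists ran from -0.13 for efflux and transport to 0.20 for the other fatty acid genes, below the 0.37 of the sterol branch; the lists were not tested against each other.

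**Figure D5:**
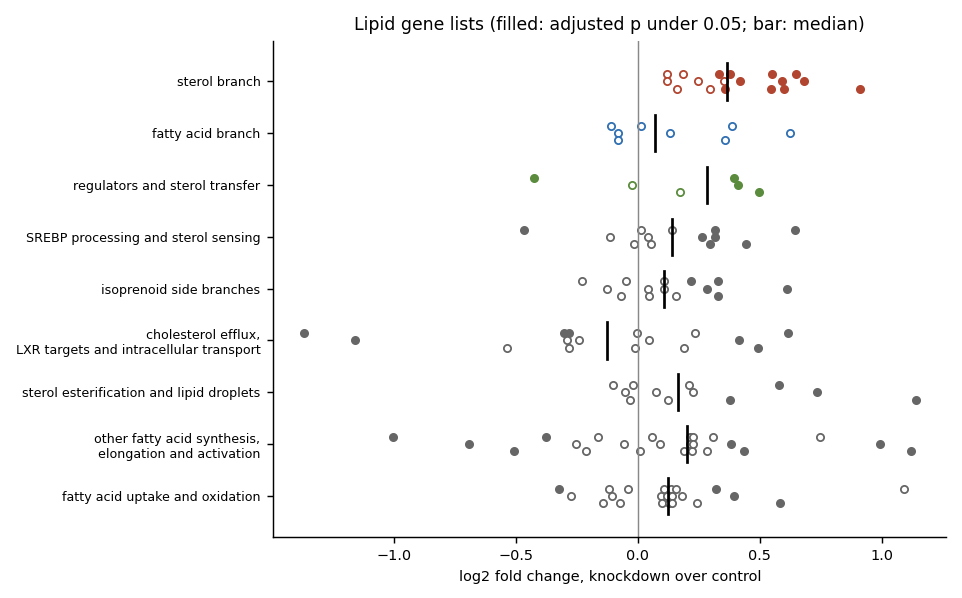
Log2 fold change in the authors' deposited table of each tested gene in the 3 groups of members (coloured) and 6 further lipid lists (grey); filled points have an adjusted p under 0.05 and black bars are medians. The sterol branch has no point left of 0, and MYLIP and ABCA1 are the 2 leftmost points of the efflux list.

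Some members share sequence with neighbours in GENCODE release 29. ACAT2 overlaps TCP1 and SOD2, MVK overlaps MMAB, and ACSS2 overlaps GGT7 on the other strand, while TM7SF2 overlaps VPS51 and FADS2 overlaps FEN1 on the same strand and FADS1 on the other. LSS, FDPS, IDI1, DHCR7, HMGCS1, CYP51A1, ACLY, SREBF2 and STARD4 are crossed by antisense genes, and SREBF1 overlaps RAI1. Whether strand was used in the counting is not stated in these sources, so reads in the shared stretches of these genes are uncertain.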

How the data were processed

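RNA-seq of 11 libraries was analysed from 1 table. Tumour RNA went through a Norgen purification kit and version 2 of the TruSeq RNA kit, per the labels' protocols. Tools named in the submitters' processing notes, which give them no roles, are the aligner STAR (2.7.6a), the counter featureCounts (2.0.0), MultiQC (1.9) and, for the authors' comparison, DESeq2 (1.24), and the builds hg19 and mm39; the annotation, strand setting and treatment of mouse reads are not stated there. Per the file headers, the table gives the authors' group means (a signal, counts divided by size factors), a log2 fold change and its error, the Wald score, a p-value and an adjusted p, under column names that the authors' DESeq2 writes. The deposited means weighted by 4, 3 and 4 libraries gave the overall mean in 21894 of 21898 rows (relative tolerance 1e-06). Of 23434 rows, 107 without a usable or unique name (0.387% of the mean signal) were left out.

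Calls use the authors' adjusted p under 0.05, over all named genes. The hairpin test divides the log2 ratio of group means (pseudocount 1, genes at 2 CPM or more with no group at 0) by the deposited standard error times 1.22. It was tested on simulated data whose error left out the spread between hairpins. The deposited error contains that spread, so the simulation does not show the power of the test in these data. Ratios to control use 1.22 and 1.13. CPM here divides normalized counts by the summed mean signal of all rows. The 95% intervals are normal, unadjusted, and exact binomial for motif shares. The planned edgeR test was not run, since the table holds group means. All 32 members are described, and of each further list the 2 called genes of largest absolute change at 2 CPM or more, with MYLIP and ABCA1 among them. MBTPS1, ABCG1, NR1H3 and the added promoters were chosen after their values were seen. Members and lists were chosen with earlier results of these data known. Lengths and overlaps come from GENCODE release 29 (GRCh38, another build than the authors', so no gene coordinates are printed from it) and promoters from RefSeq. Python 3.11.15, numpy 2.4.6, pandas 2.3.3, scipy 1.17.1 and matplotlib 3.10.9 were used.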

Additional observations from a re-analysis of the deposited data

How the results depend on the processing

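The calls of the members changed little under the alternatives run. With equal totals 31 of 32 members stayed on the same side of the threshold and MVK did not; with p-values adjusted over every gene with a p, all 32 stayed. The sterol branch had 10 called enzymes with equal totals or at a threshold of 0.01 and 11 with either other filter on low values, the fatty acid branch had 0 and the regulators 4 in each. Across all genes the threshold of 0.01 gave 3148 calls in place of 5027. Each branch median kept its sign under the scalings, pseudocounts and length correction tried. In the fatty acid branch the sign says little. Its median log2 fold change was 0.07, and 0.005 with equal totals, whereas its median ratios to control were -0.11 with shNPTX1_3 and -0.03 with shNPTX1_4. Without the bases after the start, 20 of 28 members had CCAAT in place of 21. The hairpin test called 0 members under each alternative.

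No paired analysis was possible because the table holds group means, not single libraries; for the same reason no replicate could be left out, and a single library could shift a group mean. The rescaled error of the hairpin comparison already contains any spread between the hairpins, so a lack of calls there does not show that the hairpins were alike. The error of ELOVL6, the least abundant member, was 0.27 against a median of 0.12 over the members, and the errors of ACSS2 (0.25) and FADS2 (0.20) were also above that median at higher counts.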

Other observations

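MBTPS2 is an X-linked gene; of 439 such genes at 2 CPM or more the authors' deposited table has 210 higher and 20 lower, and MBTPS2 is among the 20. BSCL2 and its readthrough HNRNPUL2-BSCL2 were called in opposite directions in the authors' deposited table, at log2 fold changes of 1.14 and -0.41. HNRNPUL2-BSCL2 had authors' means of 1444, 1012 and 1148 normalized counts. Both were singled out after their values were seen, and how reads were divided between them is not known here.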
